A study of Mus musculus with 2 samples.

Results

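Naive CD4+ and naive CD8+ T-cells from mouse blood were compared gene by gene within the same animals. The cells were those that the study's cell annotation names NveCD4T (85 cells) and NveCd8T (72 cells), 157 of 978 cells with a cell type and of 1055 cells in the count table. All came from whole blood of wildtype C57BL/6 J mice, from which the red blood cells had been lysed before nucleated single cells were sorted into plates. No surface antibody entered that sort. The RNA of each cell was separated from its DNA (scM&T-seq, a method that reads the transcriptome and the methylome of the same cell) and only the RNA is described here. Mice of 10, 36, 77 and 101 weeks were sampled, 11 in all, and untreated at every age as far as the labels say. Counts were summed over the cells of each subtype in each mouse, and the 7 mice with at least 3 cells of both subtypes were used (77 naive CD4 and 65 naive CD8 cells). These were mice 12 and 24 at 10 weeks, mice 11 and 14 at 36 weeks, and mice 21, 22 and 23 at 77 weeks. The 3 mice of 101 weeks held 2 naive CD4 and 7 naive CD8 cells between them. Mouse 15 of 36 weeks held 6 naive CD4 cells and 0 naive CD8 cells, and none of these 4 mice entered the tests below, except that mice 2 and 3 of 101 weeks entered the alternative with at least 1 cell of each subtype and mouse 2 an alternative of the split by coreceptor reads.

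The T-cell receptor of a CD4+ T-cell reads peptides on MHC class II molecules and that of a CD8+ T-cell reads peptides on MHC class I molecules. The CD4 and CD8 coreceptors bind the matching MHC class and bring the kinase Lck to the receptor. The choice between the lineages is made in the thymus, where the transcription factor ThPOK (Zbtb7b) holds the CD4 fate and RUNX3 silences Cd4 and opens the CD8 programme. Naive cells of both lineages leave the thymus before they have met antigen and circulate between blood and lymph nodes with the help of CCR7, kept alive by interleukin 7.

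The coreceptor reads matched the annotated names on one side more fully than on the other. Cd8b1, the beta chain of the CD8 coreceptor, had at least 1 count in 93.1% of naive CD8 and 4.71% of naive CD4 cells. The alpha chain Cd8a had one in 58.3% and in 0 of 85 cells (a share of at most 3.53% by the limit of 3 counts). Cd4 was seen in 47.1% of naive CD4 cells and in 0 of 72 naive CD8 cells (at most 4.17%). The same limits hold for every other 0 of 85 or 0 of 72 cells below. In 600 B-cells (median 328496 counts per cell, against 368334 in naive CD4 and 385782 in naive CD8 cells) the 3 genes had a count in 0.500%, 0.333% and 1.00% of cells. After a random draw of 150000 counts from every cell, the shares were 93.1% for Cd8b1 and 56.9% for Cd8a in naive CD8 cells and 47.1% for Cd4 in naive CD4 cells. By these reads alone, 38 naive CD4 cells carried Cd4 without Cd8, 2 carried Cd8 without Cd4, 2 carried both and 43 carried neither. Among naive CD8 cells, 68 carried Cd8 without Cd4 and 4 carried neither.

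Both subtypes carried the genes of naive T-cells. Lef1 and Tcf7, transcription factors of resting T-cells, had a count in 96.5% and 94.1% of naive CD4 and 87.5% and 86.1% of naive CD8 cells. The receptor chain gene Cd3d was found in 95.3% and 95.8%. Memory genes were mixed. Cxcr3 and S100a4, and the regulatory gene Foxp3, were at 0 in every cell of both subtypes, but Cxcr6, a chemokine receptor of memory and effector T-cells, had a count in 14 of 72 naive CD8 and 0 of 85 naive CD4 cells. Ccl5, which was seen in 96.2% of memory CD8 cells, had a count in 3.53% of naive CD4 and 6.94% of naive CD8 cells. B-cell genes defined neither subtype (Cd79a had a count in 3.53% of naive CD4 and 0 of 72 naive CD8 cells), although Ighm, an abundant B-cell transcript, had counts in 51.8% and 66.7%. Haemoglobin reads differed more. The 8 red blood cell genes summed to 617 to 108609.9 CPM, counts scaled to a library of 1000000, in naive CD4 cells of a mouse (median 37627 CPM) and 56.2 to 68389 CPM (median 1015) in naive CD8 cells. They were higher in the naive CD8 cells of only 2 of 7 mice. The study put 39 naive CD4 and 35 naive CD8 cells in its class with no red blood cell attached. The part of these reads in the differences below was tested only by leaving the other cells out.

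Of 3652 genes with a count in at least 25% of the cells of either subtype, 3 passed an adjusted p of 0.1 when the summed counts were compared within mice (edgeR quasi-likelihood test with the mouse as a block, Benjamini-Hochberg). Nkg7 and Lcn4 were higher in naive CD8 cells (0.0548% of genes tested) and Cd40lg was lower (0.0274%). Each of the 3 met the detection limit only through the subtype where it was higher, which largely fixed its direction. The study named the subtypes from these same RNA counts, by clustering and by likeness to sorted reference cells. These p-values are therefore no independent evidence that the subtypes differ. Nor do they rank genes by how evenly a difference runs over mice. Cd8a, at 0 in naive CD4 cells and higher in naive CD8 cells of 7 of 7 mice, had an unadjusted edgeR p of 0.00343. For Nkg7, also higher in 7 of 7, it was 2.85e-07. The same subtypes were also compared on log2(CPM + 1) averaged over the cells of each mouse, where a cell counts once whatever its depth, with limma and the same block. There, 16 genes were higher (0.438%) and 5 lower (0.137%) in naive CD8 cells. All 3 genes of the edgeR test were among the 21. At an unadjusted p under 0.05 there were 148 genes in edgeR and 370 in limma. DESeq2 on the summed counts called 163 genes, 72 higher and 91 lower, and 19 of the 21 were among them. Without the mouse block edgeR called 11, 8 higher and 3 lower. On the scale of mean log2(CPM + 1) the median over all genes tested was 0.17 rather than 0 and 66.0% of genes were above 0. Small positive values on it are read against that median. Without any 1 mouse edgeR called 0 to 5 genes, 0 without mouse 23, 1 without mouse 12, 14, 22 or 24 and 5 without mouse 21. limma then called 11 to 25, with 11 without mouse 12 or mouse 14. Of the 21 limma calls 10 held without any 1 mouse (Cd8b1, Nkg7, Cd8a, Lcn4, Hspe1, Gm44174, Ctsw, Dnajc15, Ostf1 and Cd40lg), and the other 11 were lost without 1 or more of them.

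**Figure D1:**
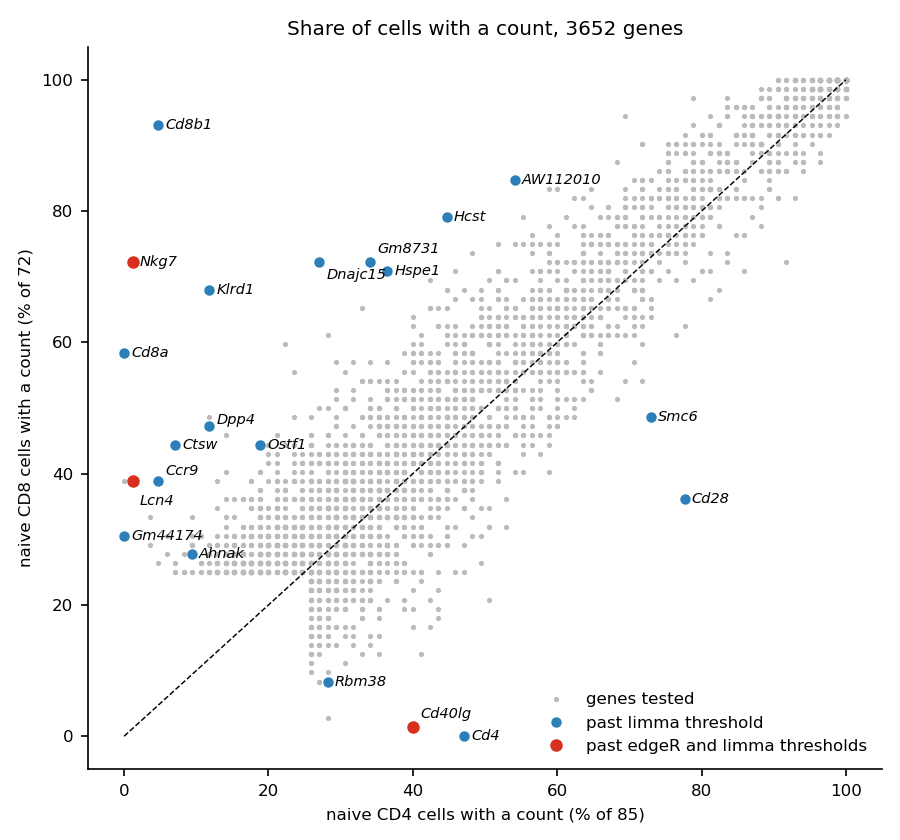
Share of cells with at least 1 count for each of 3652 genes, with naive CD4 cells (% of 85) on the x axis and naive CD8 cells (% of 72) on the y axis. Grey points are genes tested, blue points passed limma on mean log2(CPM + 1) and red points passed edgeR as well, and the dashed line marks equal shares. Cd8b1, Nkg7, Klrd1 and Cd8a lie far above the line, and Cd28, Cd4 and Cd40lg far below it.

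Nkg7 (ENSMUSG00000004612, chr7:43437073-43438249), which encodes a membrane protein of cytotoxic granules in NK and CD8+ T-cells, gave the smallest p-value in edgeR. In the summed naive CD8 cells of each mouse it stood at 520.4 to 1589 CPM (median 798). In naive CD4 cells it was at 0 in 6 mice and at 0.782 CPM in mouse 23, where a single count was found. Over all 7 mice that was 23470 counts against 1, a ratio of 25702 with a 95% counting interval from 4613 to 1015210. It was present in 1.18% of naive CD4 and 72.2% of naive CD8 cells, and in 1.17% of B-cells. It was also present in 98.1% of 106 memory CD8 cells and in all 45 effector CD4 cells. No naive CD4 value came near the naive CD8 values. edgeR gave an adjusted p of 0.00104, which was 0.394 without mouse 23 and 0.999 in the 5 mice and 56 cells left when only the class without red blood cells was kept. It was also lost with genes per cell as a covariate (edgeR adjusted p = 0.9997) and in mice with at least 5 cells (edgeR adjusted p = 0.540). The fitted log2 difference, 13.69 in all 7 mice, was 14.95 without mouse 23, 13.53 in that class, 15.11 with the covariate and 14.74 in mice with at least 5 cells. On mean log2(CPM + 1) the difference was 7.42 (standard error 0.632, limma adjusted p = 0.00188).

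Lcn4 (ENSMUSG00000026919, chr2:26667674-26671282) belongs by name to the lipocalins, small secreted proteins that bind lipids. Its level was 64.5 to 253 CPM (median 129.9) in naive CD8 cells. In naive CD4 cells 6 mice were at 0 and mouse 12 at 0.547 CPM. A count was found in 1.18% of naive CD4 and 38.9% of naive CD8 cells, in 0 of 600 B-cells (at most 0.500%), in 25.5% of memory CD8 cells and in 2.22% of effector CD4 cells. The edgeR adjusted p was 0.0335. The call was lost with thinned cells (edgeR adjusted p = 0.838) and without any 1 of 6 mice, mouse 21 being the exception (edgeR adjusted p = 0.127 without mouse 11 to 0.999 without mouse 12). It was also lost with genes per cell as a covariate and in the class without red blood cells (edgeR adjusted p = 0.9997 and 0.999). In mice with at least 5 cells and with no detection filter it was lost as well (edgeR adjusted p = 0.350 and 0.415). The fitted log2 difference stayed between 9.90 and 12.07 in every edgeR refit. The mean log2(CPM + 1) difference was 3.20 (standard error 0.360, limma adjusted p = 0.00893), with higher values in naive CD8 cells of 7 of 7 mice.

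The starts of these genes are shown because both passed edgeR as higher in naive CD8 cells. Each is given as the RefSeq window (GRCm38.p6) of 250 bases before to 50 after the start, 5′ to 3′ on the gene's own strand. Capitals mark the core of the RUNX family motif, TGTGGT or its reverse complement ACCACA.
Nkg7 promoter, chr7:43436888-43437187, plus strand: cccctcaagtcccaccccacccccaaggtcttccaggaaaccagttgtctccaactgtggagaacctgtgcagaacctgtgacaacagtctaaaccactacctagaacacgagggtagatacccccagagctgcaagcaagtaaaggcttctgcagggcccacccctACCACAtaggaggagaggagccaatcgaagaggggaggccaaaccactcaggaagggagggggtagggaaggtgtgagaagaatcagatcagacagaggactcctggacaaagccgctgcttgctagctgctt
Lcn4 promoter, chr2:26671233-26671532, minus strand: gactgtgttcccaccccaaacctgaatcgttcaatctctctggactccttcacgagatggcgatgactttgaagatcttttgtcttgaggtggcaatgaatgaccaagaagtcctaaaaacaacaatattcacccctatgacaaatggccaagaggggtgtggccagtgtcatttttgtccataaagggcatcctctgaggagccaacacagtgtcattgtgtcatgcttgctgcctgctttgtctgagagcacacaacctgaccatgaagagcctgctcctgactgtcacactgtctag
The Nkg7 window held the motif once and the Lcn4 window did not hold it. Among 32851 windows in the RefSeq set, 16.8% held it on either strand, as did 13.1% of 2294 windows of genes tested here. Windows were found for 18 of the 27 lineage genes and called genes (Cd8a, Ccr9 and Dpp4 among them), and only Nkg7 and Runx3 held the motif. A match of 6 letters is a description of the sequence and not a binding site.

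Cd40lg (ENSMUSG00000031132, chrX:57212143-57224042), which encodes the ligand by which CD4+ helper cells activate B-cells through CD40, was the gene that passed in the other direction. Naive CD4 cells held 57.0 to 358 CPM (median 182), with the highest value in mouse 12, and naive CD8 cells held a single count, in mouse 14. The ratio over all mice was 5789, with a 95% counting interval from 1039 to 228707. Its share was 40.0% of naive CD4 and 1.39% of naive CD8 cells, 62.2% of effector CD4 cells and 0.943% of memory CD8 cells. The edgeR adjusted p was 0.0234. The call was lost with thinned cells (edgeR adjusted p = 0.838) and without mouse 12, 14, 22, 23 or 24 (edgeR adjusted p = 0.102 without mouse 23 to 1 without mouse 14). It was also lost with genes per cell as a covariate and in the class without red blood cells (edgeR adjusted p = 0.635 and 0.999). In mice with at least 5 cells and with no detection filter it was lost as well (edgeR adjusted p = 0.350 and 0.173). The fitted log2 difference stayed between -12.73 and -11.12 in every edgeR refit. The mean log2(CPM + 1) difference was -3.15 (standard error 0.433, limma adjusted p = 0.0239). On the other side of the edgeR threshold the nearest gene was Leng8, at 0 to 2.91 CPM (median 0.137) in naive CD4 and 34.5 to 98.0 CPM (median 54.0) in naive CD8 cells (edgeR adjusted p = 0.109). On this side it was Lcn4.

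**Figure D2:**
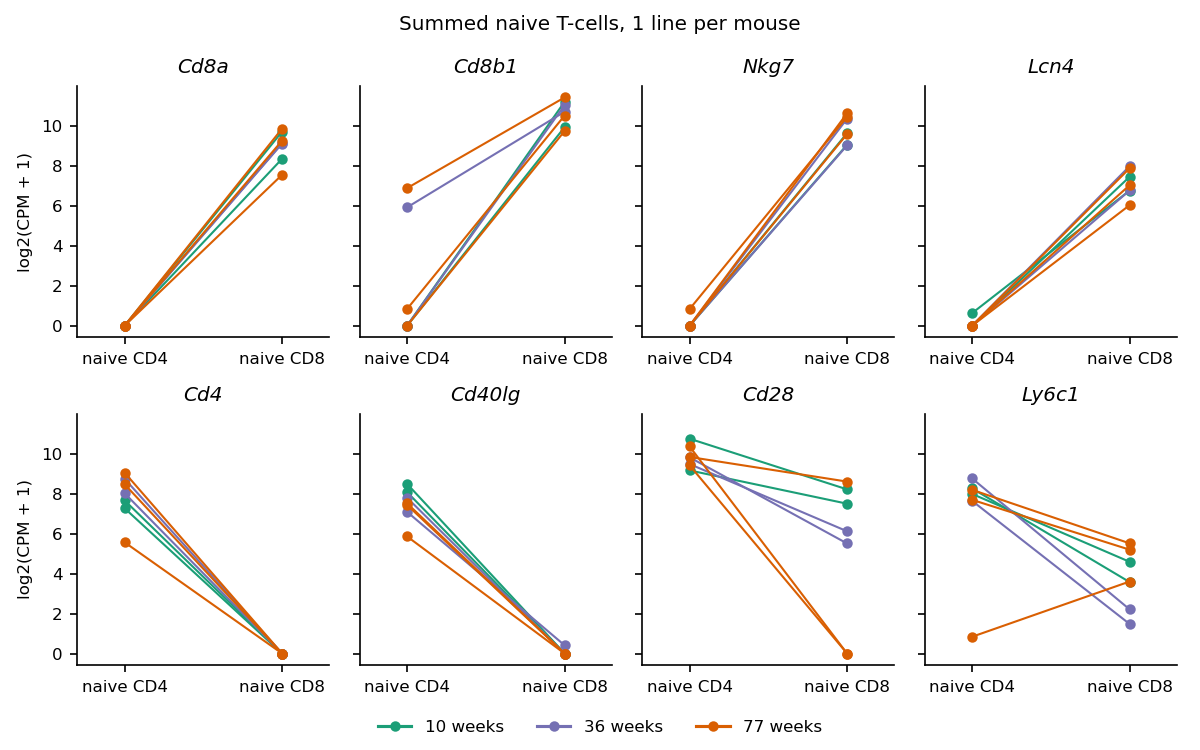
Level of 8 genes in the summed cells of each mouse, in log2(CPM + 1), with naive CD4 cells left and naive CD8 cells right. Each line joins the subtypes of 1 of 7 mice and is coloured by age (10, 36 or 77 weeks). Cd8a, Cd8b1, Nkg7 and Lcn4 were higher in naive CD8 cells of all 7 mice, Cd4, Cd40lg and Cd28 lower in all 7, and Ly6c1 lower in 6.

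The coreceptors themselves did not pass the edgeR test over all genes, although no mouse went against them. Cd8a (ENSMUSG00000053977, chr6:71373427-71379173) was at 0 in naive CD4 cells of all 7 mice and at 187 to 932 CPM (median 563) in naive CD8 cells. This was at least 5570.4-fold higher when the naive CD4 cells are set to a floor of 3 counts over all mice (edgeR adjusted p = 0.547). Cd8b1 (ENSMUSG00000053044, chr6:71322788-71337494) held 0 to 117 CPM (median 0) in naive CD4 cells and 857 to 2750.4 CPM (median 1674) in naive CD8 cells. The naive CD4 cells of mice 23 and 11 were the ones above 1 CPM (edgeR adjusted p = 0.288). Cd4 (ENSMUSG00000023274, chr6:124864692-124888221) stood at 46.4 to 529.9 CPM (median 259) in naive CD4 cells and at 0 in all naive CD8 cells. This was at least 2331-fold lower against the same floor (edgeR adjusted p = 0.969). All 3 passed limma on mean log2(CPM + 1). The differences were 9.55 (standard error 0.371, limma adjusted p = 3.11e-06) for Cd8b1 and 5.22 (standard error 0.573, limma adjusted p = 0.00893) for Cd8a. For Cd4 it was -3.86 (standard error 0.628, limma adjusted p = 0.0403), and this call was lost without mouse 11, 12, 14 or 21 (limma adjusted p up to 0.148). A lincRNA, Gm44174 (ENSMUSG00000108289, chr6:71353035-71373284), ends 142 bases before the start of Cd8a on the same strand. It was at 0 in every naive CD4 library and at 2.50 to 92.2 CPM (median 50.6) in naive CD8 cells, at least 448-fold higher by the floor. It differed by 1.96 (standard error 0.266, limma adjusted p = 0.0239) and met the detection limit through naive CD8 cells alone. Whether its reads come from a transcript of its own or run into Cd8a cannot be told apart from gene counts.

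The list of CD8 lineage genes held 15 members, of which 7 were detected widely enough to be tested. Each of the 7 had a count in fewer than 12% of naive CD4 cells and so met the detection limit through naive CD8 cells alone, which largely fixed their direction. That all 7 had higher values in naive CD8 cells is therefore a description and no support. Of these, 1 passed edgeR, 5 passed limma and 7 were called by DESeq2. Over all 3652 genes tested these tools called 2, 16 and 72 as higher. Of the 7, 6 were higher in every mouse, as were 125 of all genes tested (3.42%). In 5 the mouse means of log2(CPM + 1) did not overlap between the subtypes, as in 17 of all genes tested (0.465%). Beside Nkg7 and the coreceptor chains, these were genes of cytotoxic cells. Ctsw, the protease cathepsin W of cytotoxic lymphocytes, held 0 to 48.8 CPM (median 0) in naive CD4 cells and 61.2 to 557 CPM (median 237) in naive CD8 cells. The difference was 3.73 (standard error 0.515, limma adjusted p = 0.0239) in mean log2(CPM + 1). Klrd1, which encodes the CD94 chain of NKG2 receptors, held 0 to 156 CPM (median 30.5) in naive CD4 cells and 93.7 to 852 CPM (median 578) in naive CD8 cells. It differed by 5.19 (standard error 0.944, limma adjusted p = 0.0699), a call that held without mouse 23 and was lost without any other mouse (limma adjusted p = 0.0237 to 0.189). The naive CD8 value of Klrd1 in mouse 23 (93.7 CPM) lay below the naive CD4 value of mouse 12 (156 CPM), so that its sums overlapped. Cd7 had a count in 3.53% of naive CD4 and 29.2% of naive CD8 cells and was higher in 7 of 7 mice. Runx3, the transcription factor of the CD8 fate, was found in 9.41% of naive CD4 and 33.3% of naive CD8 cells and was higher in 6 of 7. Neither passed (limma adjusted p = 0.174 for Cd7 and 0.189 for Runx3).

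The 8 members of this list that were not tested were rare in both subtypes. Itgae, the integrin chain CD103, had a count in 11 of 72 naive CD8 and 0 of 85 naive CD4 cells. Cst7 was found in 12 naive CD8 cells and 1 naive CD4 cell, and Crtam in 8 and 0. Ccl5 averaged 75.8 CPM over naive CD8 cells, in 5 of them, and 0.184 CPM over naive CD4 cells. Eomes was found in 1 cell of each subtype, Klrk1 in 3 naive CD8 and 2 naive CD4 cells, and Gzmm in 0 naive CD8 cells. In memory CD8 cells, Nkg7, Ctsw and Klrd1 were found in 98.1%, 79.2% and 77.4% of cells, against 72.2%, 44.4% and 68.1% in naive CD8 cells, at a median of 546918 counts per cell. In effector CD4 cells, at a median of 424636 counts, the shares were 100%, 77.8% and 53.3%. Cd7 and Runx3 were found there in 64.4% and 53.3%, and Cd8a and Cd8b1 in 4.44% each. Beside the coreceptor chains, the tested genes of this list were thus not particular to CD8 cells.

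Of 15 genes of the CD4 lineage 7 were tested, and all 7 had lower values in naive CD8 cells. Cd40lg, Cd4, Trib2 and Gata3 met the detection limit through naive CD4 cells alone, so that the common direction was partly fixed by it. edgeR called 1 (Cd40lg), and limma and DESeq2 called 3. Over all 3652 genes tested edgeR, limma and DESeq2 called 1, 5 and 91 as lower. Of the 7, 3 were lower in every mouse, as were 35 of all genes tested (0.958%). The mouse means of Cd40lg, Cd28 and Cd4 did not overlap, and these were the 3 such genes among all tested (0.0821%). Cd4 itself had a count in 17.8% of effector CD4 cells and 0.943% of memory CD8 cells. Cd28, the costimulatory receptor for B7 ligands, held 572 to 1719 CPM (median 901) in naive CD4 cells and 0 to 387 CPM (median 68.3) in naive CD8 cells. It was at 0 in the naive CD8 cells of mice 21 and 23. Its share was 77.6% of naive CD4 and 36.1% of naive CD8 cells, 62.2% of effector CD4 cells and 66.0% of memory CD8 cells. The difference between the naive subtypes was -4.93 (standard error 0.794, limma adjusted p = 0.0403) in mean log2(CPM + 1). The call was lost without mouse 11, 12, 14 or 21 (limma adjusted p up to 0.159). Trib2, a pseudokinase, was lower in 6 of 7 mice in mean log2(CPM + 1) and 7 of 7 in the sums, at 233 ± 104 CPM in naive CD4 and 92.2 ± 92.0 CPM in naive CD8 cells (SD, n = 7 mice). It did not pass (limma adjusted p = 0.234). The differences of Cd5, Gata3 and Il6ra ran unevenly, with 4, 4 and 5 of 7 mice lower in naive CD8 cells (limma adjusted p = 0.749, 0.607 and 0.742). The factor of the CD4 fate, Zbtb7b, was below the detection limit of the test, with a count in 6 of 85 naive CD4 and 1 of 72 naive CD8 cells. Icos and Tox, also on the list and not tested, were found in 20.0% and 18.8% of naive CD4 cells and 23.6% and 23.6% of naive CD8 cells.

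**Figure D3:**
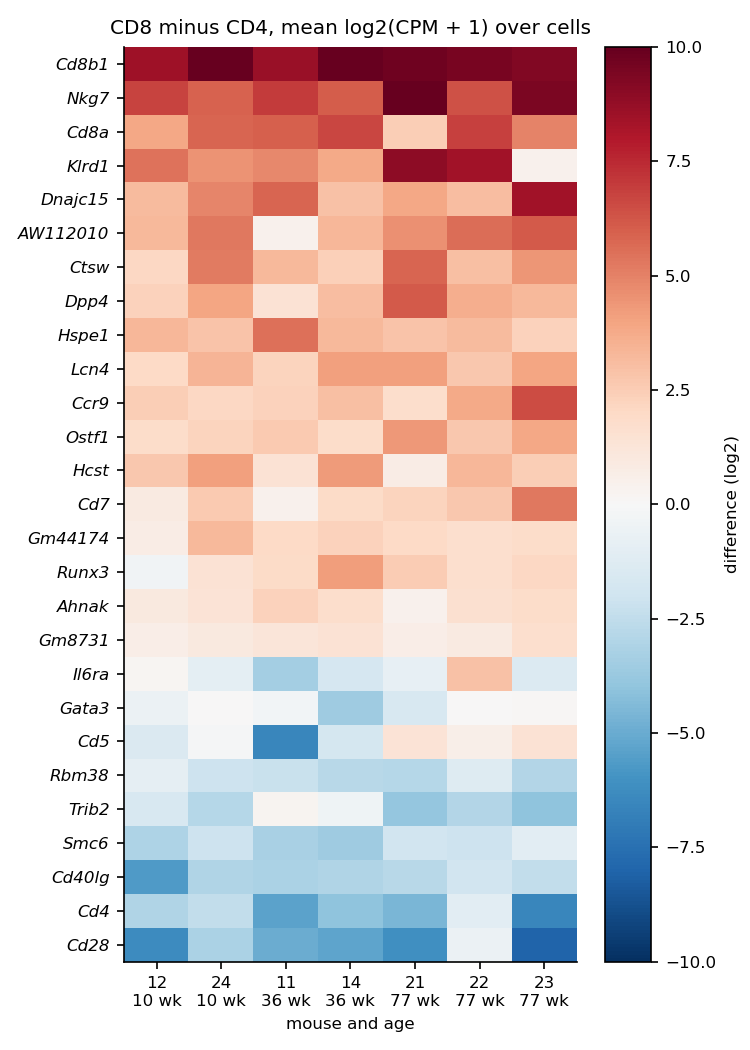
Difference between naive CD8 and naive CD4 cells in mean log2(CPM + 1) for 27 genes (rows, those called by limma and the tested members of both lineage lists) in each of 7 mice (columns, ordered by age in weeks). Red is higher and blue lower in naive CD8 cells. Cd8b1 and Nkg7 were high in every mouse, while Il6ra, Gata3, Cd5 and Trib2 changed sign between mice.

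The other genes that limma called on mean log2(CPM + 1) were named after their values were seen. Among them Ccr9, Dpp4, Ostf1 and Ahnak met the detection limit through naive CD8 cells alone, which largely fixed their direction. Ccr9, a chemokine receptor that guides cells to the small intestine, was found in 4.71% of naive CD4 and 38.9% of naive CD8 cells. Its share was 1.89% of memory CD8 cells and 24.4% of effector CD4 cells. Its sums were 0 to 40.0 CPM (median 0) in naive CD4 cells and 27.4 to 546 CPM (median 253) in naive CD8 cells. It differed by 3.13 (standard error 0.561, limma adjusted p = 0.0649). Dpp4, the surface peptidase CD26, differed by 3.40 (standard error 0.543, limma adjusted p = 0.0403) and was found in 11.8% of naive CD4 and 47.2% of naive CD8 cells. Hcst, which encodes the adaptor DAP10 of NKG2D, was found in 44.7% of naive CD4 and 79.2% of naive CD8 cells and differed by 2.73 (standard error 0.483, limma adjusted p = 0.0646). Dnajc15, a mitochondrial cochaperone, held 11.7 to 190.5 CPM (median 125) in naive CD4 cells and 504 to 995 CPM (median 634) in naive CD8 cells. The subtypes did not overlap, and it differed by 4.60 (standard error 0.676, limma adjusted p = 0.0316). Hspe1, the small subunit of the mitochondrial chaperonin, rose from 36.5% to 70.8% of cells (limma adjusted p = 0.0164). Its summed level in mouse 21 was 577 CPM in naive CD4 and 562 CPM in naive CD8 cells. Its start overlaps Hspd1 on the other strand, and reads of the overlap cannot be told apart without strand. The lincRNA AW112010 was higher in naive CD8 cells of all 7 mice, at 256 to 815 CPM (median 526) in naive CD4 cells and 862 to 2535 CPM (median 1362) in naive CD8 cells (limma adjusted p = 0.0393). In mean log2(CPM + 1) the same held for Ostf1 (limma adjusted p = 0.0353) and for Ahnak, a large scaffold protein that is abundant in memory cells. Ahnak was found in 9.41% of naive CD4 and 27.8% of naive CD8 cells, 86.8% of memory CD8 cells and 93.3% of effector CD4 cells. It differed by 1.45 (standard error 0.241, limma adjusted p = 0.0432). In effector CD4 cells Hcst was found in 93.3%, AW112010 in 100% and Dpp4 in 0%. The processed pseudogene Gm8731 was called at 2.92 CPM in naive CD8 cells, and its counts are uncertain, since a pseudogene can share reads with its parent gene. Without 1 mouse the limma call of Gm8731 was lost in 7 of 7 refits, that of Ccr9 in 6 (all but mouse 23), those of Hcst and AW112010 in 5 and those of Dpp4 and Ahnak in 4. Each of these 6 calls was lost without mouse 12, without 14, without 22 and without 24.

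Beside Cd40lg, Cd28 and Cd4, limma called Rbm38 and Smc6 as lower in naive CD8 cells. Rbm38, an RNA-binding protein, was found in 28.2% of naive CD4 and 8.33% of naive CD8 cells. It met the detection limit through naive CD4 cells alone, which largely fixed its direction. It was at 0 in the naive CD8 cells of 4 mice, a difference of -2.14 (standard error 0.317, limma adjusted p = 0.0316). Smc6, a subunit of the SMC5/6 complex of DNA repair, held 351 to 783 CPM (median 495) in naive CD4 cells and 18.1 to 581 CPM (median 153) in naive CD8 cells. It differed by -2.43 (standard error 0.393, limma adjusted p = 0.0403). Both were lower in 7 of 7 mice. The call of Rbm38 was lost without mouse 14 (limma adjusted p = 0.112) and that of Smc6 without mouse 11, 12, 14, 22 or 24 (limma adjusted p up to 0.177). A pair of genes outside every list and outside the calls of edgeR and limma, both called by DESeq2, had a wide gap in shares and was also named after its values were seen. Itm2a, a membrane protein of thymocytes and T-cells, was found in 28.2% of naive CD4 and 2.78% of naive CD8 cells. It stood at 116 to 1235 CPM (median 284) in naive CD4 cells and at 0 in naive CD8 cells of all mice but mouse 24 (95.3 CPM), with a limma adjusted p of 0.189. The lincRNA Gm43698 was found in 0 of 85 naive CD4 and 38.9% of naive CD8 cells and in 6 of 7 mice, with 0 in mouse 14 (limma adjusted p = 0.103).

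Transcription factors of T-cell identity had mostly higher values in naive CD4 cells, with 0 calls by edgeR or limma. Of 18 factors of the lineage choice 9 were tested, and 7 of the 9 had lower values in naive CD8 cells (median -1.01 in mean log2(CPM + 1)). On that scale 1243 of all 3652 genes tested were below 0. Of the 9, 4 were lower and 1 higher at an unadjusted p under 0.05 in both tests and in the calls of DESeq2. Over all 3652 genes tested these counts were 80 lower and 68 higher in edgeR, 105 and 265 in limma and 91 and 72 in DESeq2. Ets1 had 1678 ± 410.0 CPM in naive CD4 and 1019 ± 293 CPM in naive CD8 cells (SD, n = 7 mice), a log2 difference of -0.73 (standard error 0.109, edgeR adjusted p = 0.127). It was lower in naive CD8 cells of 7 of 7 mice in the sums and 5 of 7 in mean log2(CPM + 1). Bcl11b, which maintains T-cell identity, had 768 ± 244 CPM in naive CD4 and 391 ± 243 CPM in naive CD8 cells (SD, n = 7 mice). Tcf7 had 694 ± 363 CPM in naive CD4 and 419.7 ± 210.2 CPM in naive CD8 cells (SD, n = 7 mice). Both were lower in naive CD8 cells of 7 of 7 mice in mean log2(CPM + 1) and of 6 of 7 in the sums, the exceptions being mouse 21 for Bcl11b and mouse 11 for Tcf7 (limma adjusted p = 0.189 and 0.248). Lef1, the partner of Tcf7, had 1103 ± 318 CPM in naive CD4 and 622 ± 345 CPM in naive CD8 cells (SD, n = 7 mice) and was lower in 6 of 7 mice in mean log2(CPM + 1) and 7 of 7 in the sums (limma adjusted p = 0.349). Runx3 was the one that was higher at an unadjusted p under 0.05.

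Of 20 genes of naive and quiescent T-cells 19 were tested, 13 of them lower and 6 higher in naive CD8 cells (median -0.80 in mean log2(CPM + 1)). On that scale 1243 of all 3652 genes tested were below 0. The median of the list in edgeR was -0.30, and -0.03 with genes per cell as a covariate (9 above and 10 below 0). limma called 1, Ccr9, which was higher, and edgeR called 0, with 2 higher and 4 lower at an unadjusted p under 0.05. Dapl1, a gene of resting T-cells, had 449.6 ± 208 CPM in naive CD4 and 822 ± 252 CPM in naive CD8 cells (SD, n = 7 mice) and was higher in 6 of 7 mice (limma adjusted p = 0.189). Il7r, the interleukin 7 receptor chain, had 1509.8 ± 632 CPM in naive CD4 and 993 ± 424 CPM in naive CD8 cells (SD, n = 7 mice; limma adjusted p = 0.651). Ccr7, the lymph node homing receptor, had 1903 ± 672 CPM in naive CD4 and 1208 ± 478 CPM in naive CD8 cells (SD, n = 7 mice; limma adjusted p = 0.828). Among 13 homing receptors tested, Gpr18 was lower in naive CD8 cells of 7 of 7 mice in mean log2(CPM + 1) and 6 of 7 in the sums, at 124 to 424 CPM (median 169) in naive CD4 cells and 0 to 159 CPM (median 16.3) in naive CD8 cells. Rgs10 was lower in 6 of 7 (limma adjusted p = 0.257 and 0.616). limma called 1 of these 13, again Ccr9, and edgeR called 0, with 3 at an unadjusted p under 0.05.

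The receptor machinery that both lineages share showed 0 calls in edgeR, limma and DESeq2 over 19 genes tested, with 9 above and 10 below 0 (median -0.13). There were 0 genes in edgeR and 2 in limma at an unadjusted p under 0.05. Trac and Trbc1, the constant regions of the receptor chains, had 814 ± 198 and 1089 ± 622 CPM in naive CD4 cells and 593 ± 344 and 659.7 ± 259 CPM in naive CD8 cells (SD, n = 7 mice). Thy1, a surface protein of all T-cells, had 183 ± 108 CPM in naive CD4 and 305 ± 117 CPM in naive CD8 cells (SD, n = 7 mice). In the list of cytokine receptors 0 of 10 were called by edgeR or limma, with 0 and 2 at an unadjusted p under 0.05. Of the immediate early genes, 8 of 12 tested were below 0 in mean log2(CPM + 1) and 10 of 12 in edgeR, with 0 calls by edgeR or limma. Over all 3652 genes tested, 1243 and 1831 were below 0 on these scales. Junb had 3496 ± 1753 CPM in naive CD4 and 2068 ± 647 CPM in naive CD8 cells (SD, n = 7 mice) and was lower in 7 of 7 mice (limma adjusted p = 0.106). Jun held 74.5 to 633 CPM (median 308) in naive CD4 cells and 0 to 190.3 CPM (median 15.5) in naive CD8 cells. It was lower in 7 of 7 mice and missed the threshold (limma adjusted p = 0.102). These genes respond to handling of cells, and their part in the other differences was not tested.

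The Ly6C pair gave unlike patterns for near-identical neighbours on chromosome 15. Ly6c1 held 0.787 to 433 CPM (median 253) in naive CD4 cells and 1.78 to 44.7 CPM (median 11.1) in naive CD8 cells. It was lower in the summed naive CD8 cells of 6 of 7 mice, mouse 22 being the other. Ly6c2 held 0 to 8.30 CPM (median 4.47) in naive CD4 cells and 0 to 504 CPM (median 211) in naive CD8 cells. It was at 0 in the naive CD8 cells of mice 11 and 14, both of 36 weeks, and 161.6 CPM or more in those of the other 5 mice. Ly6c1 was found in 37.6% of naive CD4 and 31.9% of naive CD8 cells, and Ly6c2 in 27.1% of naive CD4 and 23.6% of naive CD8 cells. Neither passed edgeR or limma (limma adjusted p = 0.406 for Ly6c1 and 0.645 for Ly6c2). DESeq2 called Ly6c1 as lower (DESeq2 adjusted p = 0.00106) and Ly6c2 as higher (DESeq2 adjusted p = 0.00750), and counts of such similar genes are uncertain where reads fit both. Ly6a (Sca-1), of the same family, was lower in naive CD8 cells of 7 of 7 mice in mean log2(CPM + 1) and was found in 32.9% of naive CD4 and 12.5% of naive CD8 cells (limma adjusted p = 0.174).

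Most ribosomal protein genes had slightly higher values in naive CD8 cells. In edgeR 58 of 79 tested were above 0, against 49.9% of all genes tested, with a median of 0.12. In mean log2(CPM + 1) 72 of 79 were above 0 with a median of 0.31 against 0.17 over all genes. edgeR and limma called 0 of them and DESeq2 called 3 as higher. At an unadjusted p under 0.05 there were 8 in edgeR and 18 in limma, all higher. Of all 3652 genes tested DESeq2 called 72 as higher, and 68 in edgeR and 265 in limma were higher at that p. Rpl32 had 5696 ± 569 CPM in naive CD4 and 6808 ± 1048 CPM in naive CD8 cells (SD, n = 7 mice), a gain in each of 7 mice, and a log2 difference of 0.25 (standard error 0.0463, edgeR adjusted p = 0.253). Rps3 had 2472 ± 358 CPM in naive CD4 and 2974 ± 417 CPM in naive CD8 cells (SD, n = 7 mice) and was higher in the sums of 7 of 7 mice and in mean log2(CPM + 1) of 6. The median of the list in edgeR was 0.06 with the number of genes per cell as a covariate. Nuclear genes of the respiratory chain had a median of 0.11 in edgeR over 67 tested (39 above 0) and 0.61 in mean log2(CPM + 1) (53 above 0). The edgeR median was -0.08 with that covariate and -0.16 in the class of cells without red blood cells. Of these, Ndufa4, a subunit of cytochrome oxidase, was higher in 7 of 7 mice at 314 ± 101 CPM in naive CD4 and 553 ± 195 CPM in naive CD8 cells (SD, n = 7 mice; limma adjusted p = 0.111). Genes of MHC class I presentation had a median near 0 in edgeR (0.06, 19 tested, 10 above 0). In mean log2(CPM + 1) it was 0.48 with 15 above 0, against 0.17 and 66.0% over all genes. There were 0 calls in edgeR and limma, with 4 in each at an unadjusted p under 0.05. Tap2, which carries peptides into the endoplasmic reticulum, was higher in 7 of 7 mice (limma adjusted p = 0.285). Genes of the interferon response had medians of opposite sign on the scales, 0.49 in mean log2(CPM + 1) and -0.09 in edgeR, over 11 tested. edgeR and limma called 0 of them and DESeq2 called 1 as lower, with 0 in edgeR and 2 in limma at an unadjusted p under 0.05. The 4 tested genes of self-reactivity and the 22 of the mitochondrial genome had medians of -0.36 and 0.30 in mean log2(CPM + 1), with 0 calls by edgeR or limma and 1 each at an unadjusted p under 0.05 in edgeR.

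**Figure D4:**
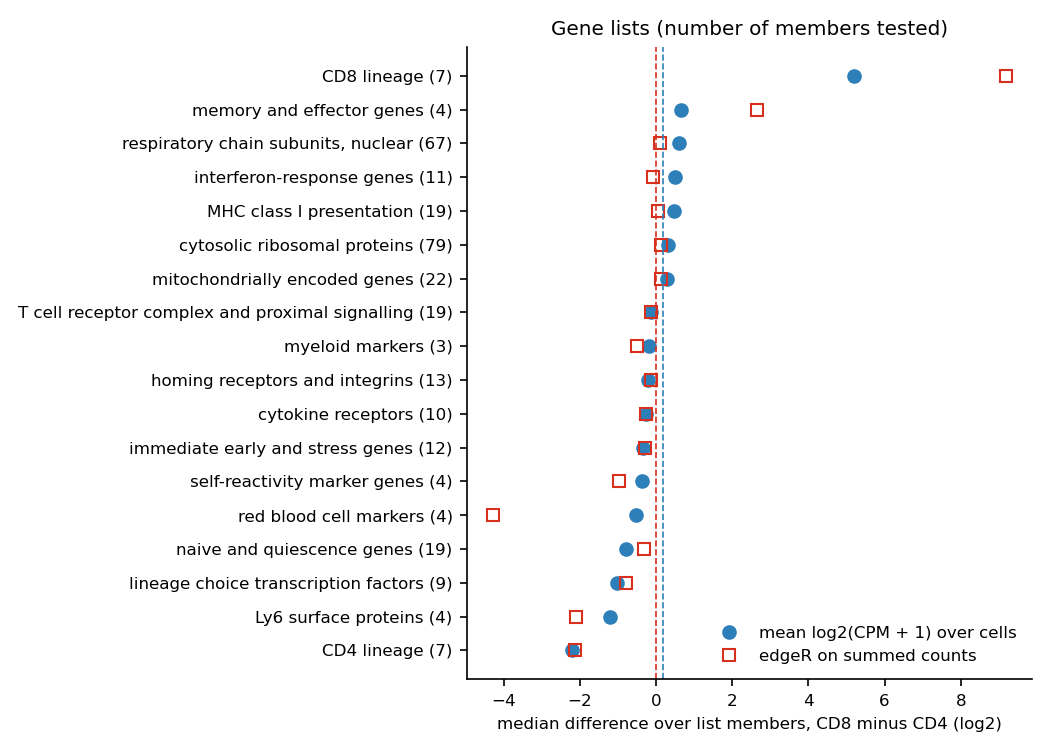
Median difference between naive CD8 and naive CD4 cells over the tested members of each gene list (number in brackets), on the log2 scale. Blue points give mean log2(CPM + 1) over cells and open red squares edgeR on summed counts, and the dashed lines mark the median over all 3652 genes on each scale (0.17 and near 0). The CD8 lineage list lies far to the right and the CD4 lineage list to the left on both scales, where the detection limit itself sets much of the direction, and the red blood cell genes lie far apart between the scales.

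Genes of other cell types in the sums were given the same test. Of 24 memory and effector genes 4 were detected widely enough, 1 of which (Ahnak) was called by limma. Of the 20 others Cxcr6 averaged 220.5 CPM over naive CD8 cells, and Il2rb, the interleukin 2 and 15 receptor chain, had a count in 10 naive CD8 cells and 1 naive CD4 cell. Cd44 had one in 2 and 6, and Klrg1, Ifng, Gzmb and Ccr2 were at 0 in both. The list summed to 673 to 1024 CPM in naive CD4 and 871 to 2412 CPM in naive CD8 cells, higher in 6 of 7 mice, as Nkg7, Klrd1 and Ctsw were in 7 of 7. The part of these genes in the cytotoxic differences was not tested. The NK list, of which only Nkg7 and Klrd1 were tested, summed to 168 CPM or less in naive CD4 and 943 to 2629 CPM in naive CD8 cells. The defining NK genes Ncr1 and Klrb1c were at 0 in every naive cell of both subtypes, and Klre1 had a count in 1 naive CD8 cell. B-cell genes summed to 108 to 832 CPM and 148 to 1154 CPM and myeloid genes to 328 to 703 CPM and 148 to 559.5 CPM, naive CD4 cells first. The B-cell sums were higher in naive CD8 cells of 5 of 7 mice and the myeloid sums in 1 of 7. DESeq2 called 1 myeloid gene as lower in naive CD8 cells, and 3 of 4 red blood cell genes tested, whose median edgeR log2 difference was -4.28. edgeR and limma called 0 of those 4, with 0 at an unadjusted p under 0.05. edgeR and limma called 0 of 5 genes tested in these lists, with 0 and 1 at an unadjusted p under 0.05. Lyz2, which marks monocytes, was at 0 in both subtypes. Csf1r, the myeloid growth factor receptor, had a count in 35.3% of naive CD4 and 30.6% of naive CD8 cells but averaged 1.18 and 0.924 CPM over cells. A share of cells with a count can rest on few reads. The 1 regulatory gene tested (Ikzf4) was not called, and genes of the gamma delta receptor and of platelets were too rare to test.

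A split that ignored the annotated names was made from the coreceptor reads alone. Among the same 157 cells, those with Cd8a or Cd8b1 and without Cd4 were set against those with Cd4 and without Cd8 in the 6 mice with at least 2 of each (53 and 32 cells, mouse 22 not among them). These 3 genes were left out of the 3649 tested. All 38 CD4-marked and 68 of 70 CD8-marked cells of the whole set had the matching name, so that the split repeats the annotation on fewer cells and is no independent test of it. edgeR called 1 gene, Nkg7 (0.0274% of genes tested, adjusted p = 0.0295), as higher in CD8-marked cells, and 0 as lower (0%), with 150 genes at an unadjusted p under 0.05. limma also called 1 as higher (0.0274%) and 0 as lower, with 324 at an unadjusted p under 0.05, and DESeq2 called 311. Without any 1 mouse edgeR called 0, and without the mouse block it called 6. Lcn4 differed by 3.35 in mean log2(CPM + 1) (limma adjusted p = 0.105), Cd40lg by -3.70 (limma adjusted p = 0.161) and Cd28 by -5.75 (limma adjusted p = 0.139).

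Naive CD8 cells yielded somewhat more genes per cell. After the draw of 150000 counts, the mean over cells was 2149 ± 126 genes in naive CD4 and 2299 ± 173 in naive CD8 cells (SD, n = 7 mice). The difference of 149.7 ± 138 genes was above 0 in 6 of 7 mice and -0.198 in mouse 24 (exact sign-flip permutation test, two-sided, p = 0.0312, the smallest possible being 0.0156). Naive CD8 cells had 256 genes more without the draw (exact permutation p = 0.0469). The difference ran to 328 genes in mouse 22. Total counts per cell were also higher, by 0.23 ± 0.23 in mean log2 (5 of 7 mice, exact permutation p = 0.0625).

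**Figure D5:**
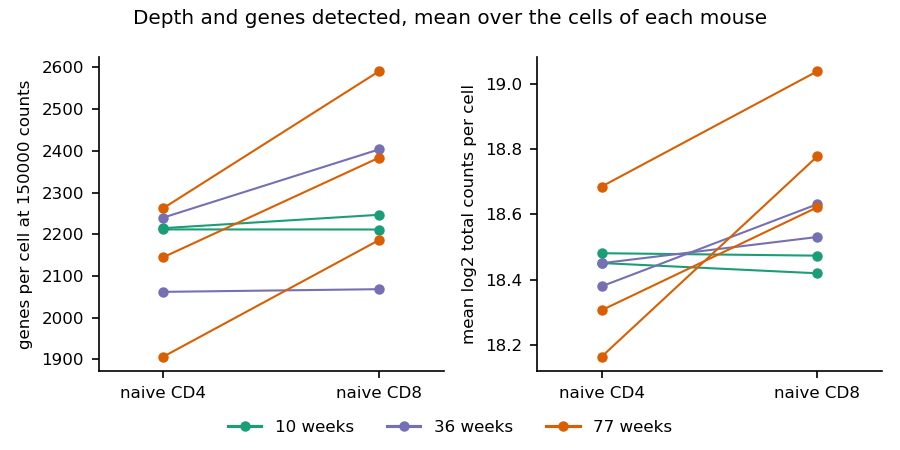
Mean number of genes with a count per cell after a draw of 150000 counts (left) and mean log2 total counts per cell (right) in naive CD4 and naive CD8 cells. Each line joins the subtypes of 1 of 7 mice and is coloured by age in weeks. Genes per cell were higher in naive CD8 cells of 6 mice and level in 1.

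Age is the study's own condition, and the interaction of subtype with age asked whether the gap between the subtypes changed from 10 to 77 weeks. edgeR called 0 of 3652 genes (0%), with 130 at an unadjusted p under 0.05, limma called 0, with 206, and DESeq2 called 170. Of the genes named here, Il7r, Jund and mt-Atp6, a subunit of ATP synthase, were at an unadjusted p under 0.05, with the edgeR log2 difference moving by -0.20, -1.06 and -0.20 per 10 weeks (edgeR adjusted p = 1 for each). Nkg7, Lcn4, Cd8a and Cd8b1 were higher and Cd4, Cd40lg and Cd28 lower in naive CD8 cells of every mouse of the 3 ages. Nkg7 in naive CD8 cells stood at 533 and 798 CPM at 10 weeks, 520.4 and 1318 CPM at 36 weeks and 772, 1403 and 1589 CPM at 77 weeks. These ranges overlap. Cd40lg in naive CD4 cells stood at 269 and 358 CPM at 10 weeks, 135 and 221 CPM at 36 weeks and 57.0, 172 and 182 CPM at 77 weeks. The mice of 10 weeks were the highest for Cd40lg, which was not tested as a difference in naive CD4 cells alone. Mice of 101 weeks had too few naive cells to enter this test.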

How the data were processed

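The authors deposited raw counts per gene and cell (featureCounts on Ensembl 96 genes, reads trimmed with Trim Galore 0.6.7 and aligned with STAR to GRCm38). There were no molecular identifiers, so counting intervals and limits at 0 cover counting error only. Cell types and mice came from the study's table of cells, which gives no link to the 2 samples of the labels. Doublets were not called, and 2 of 157 cells held reads of both coreceptors. Members and gene lists were chosen with earlier results of these data known.

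Counts were summed per mouse and subtype, scaled by TMM (CPM were computed here) and tested with edgeR 4.0.16 (robust quasi-likelihood, mouse as block, Benjamini-Hochberg over all genes, threshold 0.1). limma 3.58.1 was run on mean log2(CPM + 1) and DESeq2 1.42.0 on the sums, in R 4.3.3. Only edgeR was checked on simulated data. There it found few of the changed genes between annotated subtypes and none in the split by reads or the interaction with age. Few or no calls in these tests therefore say little. Pairing comes from the animal: deviations of the subtypes in the same mouse correlated at 0.00831 to 0.206, and 3 of 7 correlated best with their own mouse. Totals per cell ran from 182942 to 746927 counts. Cells are not replicates, and n is mice. Genes named were the calls (up to 15 in each direction), every tested lineage member, up to 4 members with the smallest p of each other list (those with p of 0.3 or more stayed in the list counts), the genes nearest the threshold, and others said to be chosen after their values were seen.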

Additional observations from a re-analysis of the deposited data

Results flagged for a closer look

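The difference between naive CD8 and naive CD4 cells was looked at mouse by mouse for 77 measures, most of them genes in mean log2(CPM + 1). In 7 of them, all genes on that scale, 1 of the 7 mice stood apart from the rest by Dixon's criterion, which chance gives in about 1 in 20. Mouse 11 of 36 weeks gave the lowest value for Cd5 (-6.54) and Trac (-6.73) and the highest for Hspe1 (5.49). Mouse 23 of 77 weeks, with 4 cells of each subtype, gave the highest value for Ccr9 (6.53) and the lowest for Jund (-4.12). Mouse 12 of 10 weeks gave the lowest for Cd40lg (-5.68), in the same direction as the other mice, and mouse 24 of 10 weeks the highest for Ly6e (3.87), where 6 mice lay below 0.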

How the results depend on the processing

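The number of genes called between the annotated subtypes (3) was also 3 with DESeq2 size factors or an adjusted p of 0.05. It was 163 with DESeq2, 21 with limma, 11 without the replicate block, 10 with protein-coding genes only, 5 with mice of at least 1 cell and 5 without cells that held counts of the other coreceptor. It was 1 with cells thinned to equal counts, with genes detected in 50% of either subtype or with no detection filter, and 0 with genes detected in 25% of both subtypes, with mice of at least 5 cells, with genes per cell as a covariate and in the class of cells without red blood cells. That class leaves 56 cells of 5 mice, and mice of at least 5 cells leave 118 cells of 5 mice. A share of 25% in both subtypes drops all 3 called genes from the test, and 50% in either drops Lcn4 and Cd40lg, so that these counts follow from the setting. For the other settings the cause was not tested. Mouse 23 held the only naive CD4 count of Nkg7, and mouse 14 the only naive CD8 count of Cd40lg. Mouse 12 was the only one with naive CD4 counts of Lcn4. Each of these calls was lost without that mouse. After thinning, Lcn4 was in 0% of naive CD4 cells and Cd40lg in 0% of naive CD8 cells, and both calls were lost. The part of these few counts in the losses was not tested. Leaving out 1 mouse gave 0 to 5 calls in edgeR and 11 to 25 in limma, a setting added after the data were seen, as was limma for the other tests. In the split by coreceptor reads, 1 call became 311 with DESeq2, 2 with CD4-marked cells taken as those without Cd8 counts, 6 without the replicate block and 0 to 0 without 1 mouse, and stayed at 1 with limma. For the interaction with age, 0 calls became 170 with DESeq2 and stayed at 0 with limma, without a filter and without any 1 mouse. Genes per cell differed by 119.9 to 174.7 without 1 mouse (exact permutation p = 0.0312 without mouse 24 and 0.0625 without any other), and total counts by 0.16 to 0.27 in mean log2.

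Of 2025 refits of the log2 differences of the genes named, 1825 kept direction and side of the threshold, 160 newly passed it and 25 no longer passed, all for Cd40lg, Lcn4 and Nkg7, the 3 genes that passed edgeR. The sign turned in 15, none past the threshold: with genes per cell as a covariate for Il7r (0.066), Ly6e (0.083) and Jund (0.60), in the class without red blood cells for Gata3 (0.57), without cells with the other coreceptor for Trbc1 (0.038), and with limma for Hba-a1 (0.41). For Hba-a1 the refits without 1 mouse ran from -4.0013 to 1.22 over both tools, those above 0 being limma's, as with all mice. limma without 1 mouse, which changes the tool as well, turned the sign of Hba-a2 (-5.0011 to 0.36), Cd5 (-2.62 to 0.0042) and mt-Rnr1 (-0.84 to 0.15; ranges over both tools).

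Depth and numbers limit these results: 4 to 20 cells of a subtype stood for a mouse, Cd4 was read in fewer than 50% of the cells named for it, and mice of 101 weeks entered only the count with mice of at least 1 cell (mice 2 and 3) and the split with CD4-marked cells taken as those without Cd8 counts (mouse 2).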
